A study of Mus musculus with 15 samples.

Results

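Chemokine ligands are small proteins that draw leukocytes along gradients. The mRNA of 10 of them (Ccl3, Ccl4, Ccl5, Ccl6, Ccl9, Ccl17, Ccl22, Cxcl1, Cxcl9 and Cxcl16) is described here over 5 sorted mouse mononuclear phagocyte (MP) subtypes, dendritic cells (DCs) of spleen and lymph node (LN) and splenic monocytes. The members were chosen by name, with no measured value in the rule but with earlier results of these data known. They were matched by symbol to the Ensembl identifiers of the count table. All 10 were found among its 38924 gene identifiers, and all 10 passed the filter of more than 1 CPM (counts scaled to a common library size) in at least 3 libraries, which kept 14456 genes. Ccl17 and Cxcl1 passed it through LN libraries only.

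The study profiled MPs of mice and humans, and the 15 mouse libraries used here came from spleen and the lung-draining LN, with 3 libraries per subtype. The subtypes were splenic CD8+ DCs (CD11c+ MHCII+), splenic CD4+ DCs, LN CD103+ DCs, LN CD11b+ DCs and splenic Ly6C+ monocytes. CD8+ and CD103+ DCs belong to the DC1 lineage, CD4+ and CD11b+ DCs to the DC2 lineage. All mice were naïve, untreated C57BL/6 animals of 6 to 8 weeks, female per the methods of the study, and each library held cells pooled from 5 mice. The gate for LN DCs took cells of high MHC class II, so they stand for the migratory DCs of the node and not for its resident DCs. Organs came from different cohorts, CD11c beads were used to enrich DCs but CD11b beads for monocytes, and monocyte libraries were sequenced in 2 runs against 1 for DC libraries, so organ, enrichment and cohort cannot be told apart from subtype. The labels do not say that replicate pools were independent sorts, and p-values measure only the spread between these pools.

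Ligands of the CC and CXC families act through G protein-coupled receptors on the responding cell. CCL17 and CCL22 share the receptor CCR4, found on regulatory and helper T cells. CCL3, CCL4 and CCL5 attract activated T cells and MPs, and CCL3 and CCL5 act on CCR1, as do the mouse ligands CCL6 and CCL9. CXCL9 acts on CXCR3 of activated T cells and NK cells, CXCL16 on CXCR6 of T and NKT cells, and CXCL1 on CXCR2 of neutrophils. In lymphoid organs DCs are known to make several of these ligands, which bring T cells into contact with antigen-bearing DCs.

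Counts on genes summed to 4531243 to 10233914 per library. Levels within a gene are given as CPM, scaled with the TMM factors of edgeR, and levels of different genes are compared as TPM, which divides by exon length. Differences are log2 fold changes ± SE from edgeR's quasi-likelihood test in a model of the 5 subtypes, and passed the test at a Benjamini-Hochberg adjusted p of at most 0.05 over all genes tested. The splenic subtypes carried the markers of their labels, and the LN subtypes did so less clearly. The sum of 9 DC1 markers was 5426 to 8736 CPM in splenic CD8+ DCs but 896 to 1324 CPM in LN CD103+ DCs, which overlapped the 766 to 1069 CPM of splenic CD4+ DCs. LN CD103+ DCs stood above LN CD11b+ DCs, at 382 to 558 CPM. The sum of splenic CD4+ DCs was led by Wdfy4, with a mean of 758 CPM against 119 CPM in LN CD103+ DCs. Tlr3 had similar means in these subtypes (9.14 and 7.87 CPM). The other DC1 markers had higher means in LN CD103+ DCs, such as Irf8 at 613 against 51.9 CPM and Xcr1 at 55.2 against 3.71 CPM. The sum of 6 DC2 markers was 1575 to 2671 CPM in splenic CD4+ DCs and 830 to 920 CPM in LN CD11b+ DCs, above both DC1 subtypes (53.3 to 177 CPM) and below or level with monocytes (2286 to 2606 CPM). The sum of 6 monocyte markers was 7555 to 8303 CPM in monocytes and at most 691 CPM in any DC library. Itgae, which encodes CD103, was counted at only 20.8 to 39.6 CPM in LN CD103+ DCs, below the 71.8 to 135 CPM of splenic CD8+ DCs. A sum of 5 markers of mature migratory DCs (Ccr7, Fscn1, Cd40, Socs2 and Relb) was 14123 to 16704 CPM in LN CD103+ DCs, while LN CD11b+ DCs had 8391 to 11448 CPM, against 375 to 461 CPM in splenic CD8+ DCs, a higher 995 to 1930 CPM in splenic CD4+ DCs, and 192 to 243 CPM in monocytes. LN CD103+ DC replicate 1 stood apart in 6 B cell markers, which summed to 189 CPM there and to 13.7 and 25.2 CPM in the other libraries of that subtype. Bulk libraries cannot tell fewer cells of a type from less RNA per cell.

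Each subtype held the highest mean of at least 1 ligand. LN CD103+ DCs were highest for Ccl5, Ccl17 and Ccl22, LN CD11b+ DCs for Cxcl1 and Cxcl16, monocytes for Ccl6 and Ccl9, splenic CD4+ DCs for Ccl3 and Ccl4, and splenic CD8+ DCs for Cxcl9. Tested for any difference over the 5 subtypes, 10 of 10 members passed, where 73.5% of all genes tested did. This count was favoured by the filter for Ccl17 and Cxcl1, which passed it through LN libraries only.

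**Figure D1:**
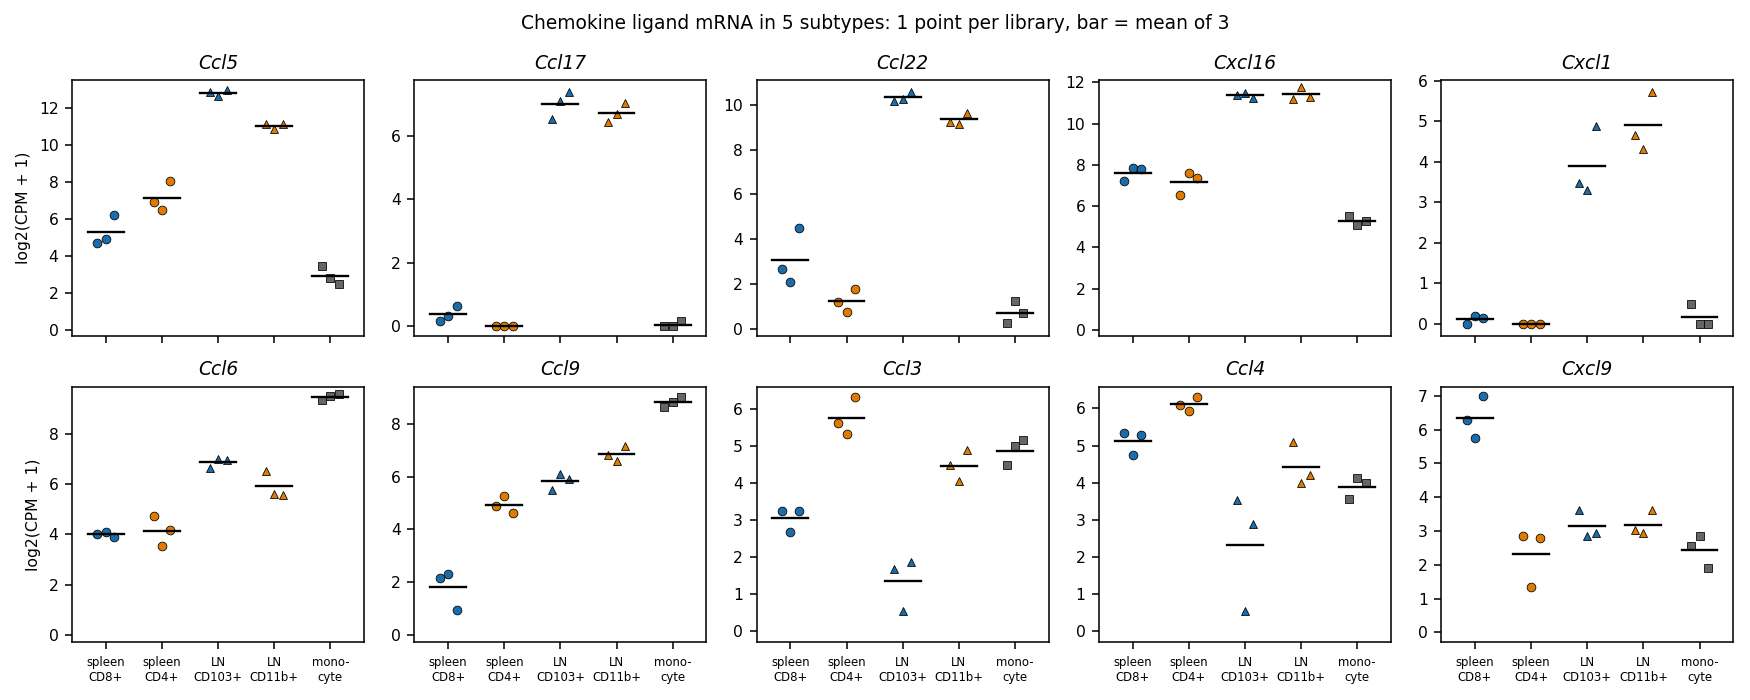
Levels of the 10 ligands as log2(CPM + 1), with 1 point per library (circles spleen DCs, triangles LN DCs, squares monocytes, blue DC1, orange DC2) and a bar at the mean of the 3 log2 values. Ccl5, Ccl17, Ccl22, Cxcl16 and Cxcl1 were highest in the 6 LN libraries, Ccl6 and Ccl9 in monocytes, Ccl3 and Ccl4 in splenic CD4+ DCs and Cxcl9 in splenic CD8+ DCs.

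The ligands of CCR4 were counted almost wholly in LN DCs. Ccl17 (ENSMUSG00000031780) lies on the plus strand of chromosome 8 (mm10, chr8:94810453-94812035). It measured 90.3, 134 and 164 CPM in LN CD103+ DCs, while LN CD11b+ DCs had 85.8, 101 and 129 CPM. Splenic CD8+ DCs held 1, 2 and 5 counts (0.321 ± 0.231 CPM, SD, n = 3), splenic CD4+ DCs none, and monocytes 1 count in replicate 3 alone. The LN subtypes overlapped each other and lay above every splenic library.

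Within DC1, Ccl17 was 404-fold higher in the LN (log2 fold change 8.56 ± 0.43, adjusted p = 2.82e-10), or 682-fold without splenic CD8+ DC replicate 3, which held most of its splenic counts. Within DC2 it was at least 689-fold higher in the LN, set against the limit of 3 counts over the splenic CD4+ DC libraries (adjusted p = 1.1e-09). The limit was 417-fold when replicate 1 of splenic CD4+ DCs was left out, because fewer reads then stand behind the 3 counts. The libraries had no molecular identifiers, so such limits and intervals cover counting error only. Against the single count of monocytes, LN CD103+ DCs were 2977-fold higher (counting error at 95% spans 534 to 117597), and at least 664-fold higher without monocyte replicate 3, which held that count. The 2 LN subtypes did not pass the test against each other (log2 fold change 0.30 ± 0.26, adjusted p = 0.53). Splenic CD8+ DCs passed against splenic CD4+ DCs, at least 2.10-fold higher (adjusted p = 0.0353), or 1.27-fold when replicate 1 of splenic CD4+ DCs was left out, and this call was lost without splenic CD8+ DC replicate 2 or 3 or any 1 splenic CD4+ DC library (adjusted p from 0.0529 to 0.139).

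Ccl22 (ENSMUSG00000031779; chr8:94745590-94751699, plus strand), the second ligand of CCR4, lies 58.8 kb upstream of Ccl17 and was likewise highest in the LN subtypes. It measured 1146, 1233 and 1518 CPM in LN CD103+ DCs, while LN CD11b+ DCs had 606, 563 and 798 CPM. Splenic CD8+ DCs had 5.498, 3.24 and 21.6 CPM, splenic CD4+ DCs 1.29, 0.682 and 2.50 CPM, and monocytes 0.197, 1.36 and 0.658 CPM. The LN libraries all lay above the others, and within splenic CD8+ DCs replicate 3 was well above the other libraries.

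The LN excess of Ccl22 was 128-fold in DC1 (log2 fold change 6.99 ± 0.55, adjusted p = 9.42e-09) and 440-fold in DC2 (8.77 ± 0.64, adjusted p = 1.06e-08). Without splenic CD8+ DC replicate 3 the ratio in DC1 was 297, and without splenic CD4+ DC replicate 3 the ratio in DC2 was 665. LN CD103+ DCs had 1.98 times the level of LN CD11b+ DCs with no overlap of libraries, which did not pass the test (log2 fold change 0.99 ± 0.42, adjusted p = 0.146) but passed with the replicate number as a block (1.00, adjusted p = 0.0359), with no filter (0.000356) and in a fit of these 2 subtypes alone (0.00783). Splenic CD8+ DCs were 6.80-fold above splenic CD4+ DCs (2.77 ± 0.60, adjusted p = 0.00206), or 2.93-fold without splenic CD8+ DC replicate 3. Monocytes and splenic CD4+ DCs, the lowest subtypes, did not pass against each other (adjusted p = 0.441).

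The windows before the starts of these neighbours are shown because both genes rose together in the LN. Sequences are from the RefSeq promoter table (GRCm38.p6), are read 5′ to 3′ on the gene's strand, and stop before the first annotated exon base. Capitals mark matches to motifs searched on both strands. In Ccl17 (chr8:94810203-94810452) they are a STAT6 motif, TTC and GAA with any 4 bases between them, 154 to 145 bases before the start, and a STAT motif called GAS, TTC and GAA with any 3 bases between them, 99 to 91 bases before it. These motifs stand in 6.99% and 8.47% of 27025 promoter windows. In Ccl22 (chr8:94745434-94745589) the window, cut short by an annotated exon, held no match.
Ccl17: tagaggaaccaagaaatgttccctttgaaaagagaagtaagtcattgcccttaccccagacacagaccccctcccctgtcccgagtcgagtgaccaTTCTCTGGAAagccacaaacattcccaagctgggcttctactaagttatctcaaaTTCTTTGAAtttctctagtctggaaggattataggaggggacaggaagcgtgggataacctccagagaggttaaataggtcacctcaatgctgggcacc
Ccl22: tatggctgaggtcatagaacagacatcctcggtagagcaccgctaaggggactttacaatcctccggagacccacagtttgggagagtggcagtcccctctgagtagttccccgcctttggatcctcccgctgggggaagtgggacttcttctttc

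Of Ccl3, Ccl4 and Ccl5, ligands that attract activated T cells and MPs, Ccl5 was highest in LN DCs and Ccl3 and Ccl4 in splenic CD4+ DCs. Ccl5 (ENSMUSG00000035042; chr11:83525778-83530518, minus strand), also called RANTES and made by T and NK cells as well as DCs, had the highest level of the 10. It measured 7430, 6405 and 7974 CPM in LN CD103+ DCs, while LN CD11b+ DCs had 2257, 1872 and 2227 CPM. Splenic CD4+ DCs had 119, 89.3 and 263 CPM, splenic CD8+ DCs 25.2, 29.8 and 74.9 CPM, and monocytes 10.03, 6.22 and 4.605 CPM. No neighbouring subtypes overlapped in this order, and each step passed the test.

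Ccl5 was 168-fold higher in the LN within DC1 (log2 fold change 7.39 ± 0.50, adjusted p = 1.65e-09), or 264-fold without splenic CD8+ DC replicate 3. Within DC2 it was 13.5-fold higher (3.75 ± 0.43, adjusted p = 1.79e-06), or 20.3-fold without splenic CD4+ DC replicate 3. The order of the lineages turned between organs. In the LN the DC1 subtype was 3.43-fold above the DC2 subtype (1.78 ± 0.39, adjusted p = 0.00437), and in the spleen the DC1 subtype was 3.63-fold below it (-1.86 ± 0.40, adjusted p = 0.00187), or 5.72-fold below without splenic CD8+ DC replicate 3. The difference of the 2 organ changes was 3.64 ± 0.56 on the log2 scale (adjusted p = 0.000279).

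Markers of T and NK cells, which also make Ccl5, moved with it in part, although the sort took lineage-negative cells and the study lists antibodies to CD3, NK1.1 and B220 among its reagents. The sum of 8 T cell markers was 74.1 to 108 CPM in LN CD103+ DCs, while LN CD11b+ DCs had 49.9 to 76.7 CPM, against 3.24 to 13.6 CPM in splenic CD8+ DCs, then 12.8 to 21.4 CPM in splenic CD4+ DCs and 0.787 to 2.76 CPM in monocytes, with all 8 markers counted in each DC subtype. Its defining marker Cd3e measured 2.65 to 11.1 CPM in LN CD103+ DCs. The sum of 8 NK cell markers was 10.8 to 15.1 CPM and 5.27 to 22.5 CPM in the LN subtypes and at most 3.22 CPM in the others. The part of these cells in the Ccl5 level was not tested.

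Ccl3 (ENSMUSG00000000982; chr11:83647844-83649355, minus strand), or MIP-1α, was highest in splenic CD4+ DCs, at 48.2, 38.9 and 78.7 CPM. Monocytes had 21.4, 31.0 and 34.6 CPM, LN CD11b+ DCs 21.4, 15.5 and 28.7 CPM, splenic CD8+ DCs 8.49, 5.40 and 8.47 CPM, and LN CD103+ DCs 2.23, 0.468 and 2.65 CPM. In each organ the DC2 subtype lay above the DC1 subtype with no overlap, 7.42-fold in the spleen (log2 fold change of CD8+ minus CD4+ DCs -2.88 ± 0.39, adjusted p = 1.88e-05) and 12.3-fold in the LN (CD103+ minus CD11b+ DCs -3.66 ± 0.45, adjusted p = 1.7e-05). In each lineage the LN subtype lay below the splenic subtype, 4.18-fold in DC1 (-2.12 ± 0.45, adjusted p = 0.000844) and 2.52-fold in DC2 (-1.34 ± 0.36, adjusted p = 0.00723), the latter lost with limma on log2(TPM + 0.1) (adjusted p = 0.0664). Across organ and lineage, LN CD11b+ DCs lay 2.94-fold above splenic CD8+ DCs (1.54 ± 0.38, adjusted p = 0.00314). Monocytes did not pass against LN CD11b+ DCs (0.42 ± 0.36, adjusted p = 0.351). They fell below splenic CD4+ DCs (-0.92 ± 0.35, adjusted p = 0.0387), a call lost without splenic CD4+ DC replicate 3 (adjusted p = 0.2) or any monocyte library (0.0533 to 0.149) and with both limma fits (0.151 and 0.219).

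Ccl4 (ENSMUSG00000018930; chr11:83662584-83664683, plus strand), or MIP-1β, lies 13.2 kb from Ccl3 on the other strand. It was also highest in splenic CD4+ DCs, at 66.9, 60.3 and 77.7 CPM, followed by splenic CD8+ DCs at 39.7, 25.9 and 37.7 CPM. LN CD11b+ DCs had 33.1, 14.96 and 17.5 CPM, monocytes 10.8, 16.4 and 14.9 CPM, and LN CD103+ DCs 10.6, 0.468 and 6.46 CPM. LN CD103+ DC replicate 2 held 4 counts of Ccl4 and 4 of Ccl3, the lowest library for both genes.

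Ccl4 fell in the LN within DC1, 5.89-fold (log2 fold change -2.58 ± 0.53, adjusted p = 0.00061), or 9.93-fold without LN CD103+ DC replicate 1, the library with the most B cell marker RNA, whose part in Ccl4 was not tested. Within DC2 it fell 3.13-fold (-1.63 ± 0.49, adjusted p = 0.0152), a call lost without LN CD11b+ DC replicate 2 or 3 (adjusted p = 0.0692 and 0.0522) and with limma on log2(TPM + 1) or log2(TPM + 0.1) (0.0615 and 0.105). LN CD103+ DCs were 3.74-fold below LN CD11b+ DCs (-1.94 ± 0.53, adjusted p = 0.0202), or 6.31-fold without LN CD103+ DC replicate 1, and this call was lost without LN CD103+ DC replicate 3 or LN CD11b+ DC replicate 1 (adjusted p = 0.0545 and 0.115) and in a fit of these 2 subtypes alone (0.0709). The splenic DC subtypes did not overlap but did not pass the test (-0.99 ± 0.48, adjusted p = 0.135). They passed in a fit of these 2 subtypes alone (adjusted p = 0.0202), with no filter on low counts (0.00259) and without LN CD103+ DC replicate 2 (0.0181). Splenic CD8+ DCs, LN CD11b+ DCs and monocytes were neighbours in the order that did not pass against each other in 2 steps (adjusted p = 0.312 and 0.302).

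A sum of 8 macrophage markers, cells that are a known source of Ccl3 and Ccl4, was 1084 to 1370 CPM in splenic CD4+ DCs, then 692 to 1084 CPM in LN CD11b+ DCs and 586 to 695 CPM in monocytes. In splenic CD8+ DCs and LN CD103+ DCs it was 172 to 286 CPM and 189 to 236 CPM, with every marker counted in each subtype. In both organs the sum was higher in DC2 than in DC1, as was Ccl3, and its part in the ligand levels was not tested.

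The ligands Ccl6 and Ccl9 were highest in monocytes, with the LN DC subtypes next in mean level. Both encode ligands of CCR1 that are made in mice by cells of the myeloid lineage. Ccl6 (ENSMUSG00000018927; chr11:83587882-83593087, minus strand) measured 656, 725 and 765 CPM in monocytes, 99.4, 128 and 124 CPM in LN CD103+ DCs, and 92.4, 48.4 and 46.2 CPM in LN CD11b+ DCs. Splenic CD4+ DCs had 25.6, 10.6 and 16.98 CPM and splenic CD8+ DCs 15.4, 16.2 and 13.7 CPM, and these 2 subtypes overlapped (log2 fold change -0.24 ± 0.29, adjusted p = 0.583).

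Monocytes exceeded LN CD103+ DCs in Ccl6 by 6.12-fold (log2 fold change 2.61 ± 0.29, adjusted p = 3.19e-07) and splenic CD8+ DCs by 47.3-fold (5.56 ± 0.33, adjusted p = 2.2e-10). The LN subtypes exceeded their splenic counterparts by 7.73-fold in DC1 (2.95 ± 0.30, adjusted p = 2.03e-07) and 3.51-fold in DC2 (1.81 ± 0.29, adjusted p = 8.12e-05). LN CD103+ DCs were 1.87-fold above LN CD11b+ DCs (0.90 ± 0.27, adjusted p = 0.0367), a call lost without replicate 2 or 3 of either subtype (adjusted p from 0.0991 to 0.147) and with both limma fits (0.078 and 0.0947).

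Ccl9 (ENSMUSG00000019122; chr11:83572919-83578636, minus strand), 9.2 kb downstream of Ccl6, measured 404, 454 and 516 CPM in monocytes. LN CD11b+ DCs had 112, 96.3 and 144 CPM, LN CD103+ DCs 44.0, 67.3 and 59.8 CPM, splenic CD4+ DCs 28.9, 37.0 and 23.6 CPM, and splenic CD8+ DCs 3.47, 3.91 and 0.916 CPM. No neighbours in this order overlapped, and each step passed the test.

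Monocytes exceeded LN CD11b+ DCs in Ccl9 by 3.89-fold (log2 fold change 1.96 ± 0.29, adjusted p = 1.69e-05) and splenic CD8+ DCs by 166-fold (7.38 ± 0.39, adjusted p = 5.21e-11). The LN excess was 20.6-fold in DC1 (4.38 ± 0.35, adjusted p = 1.15e-08) and 3.94-fold in DC2 (1.98 ± 0.30, adjusted p = 3.93e-05), a difference between lineages of 2.4 ± 0.45 (adjusted p = 0.00159). The splenic CD4+ DCs were 10.8-fold above the CD8+ DCs (log2 fold change of CD8+ minus CD4+ DCs -3.44 ± 0.35, adjusted p = 7.87e-07). LN CD11b+ DCs were 2.06-fold above LN CD103+ DCs (CD103+ minus CD11b+ DCs -1.04 ± 0.28, adjusted p = 0.0194), a call lost without LN CD103+ DC replicate 1 or 3 or LN CD11b+ DC replicate 3 (adjusted p from 0.0545 to 0.0904) or with limma on log2(TPM + 0.1) (0.0785). The step from LN CD103+ to splenic CD4+ DCs (0.94 ± 0.29, adjusted p = 0.0124) was lost without LN CD103+ DC replicate 2 (adjusted p = 0.0571) and with limma on log2(TPM + 0.1) (0.11). Ccl6 and Ccl9 thus ordered the LN subtypes in opposite directions.

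A list of 9 neutrophil markers, a cell type that also makes Ccl6, summed to 216 to 337 CPM in monocytes, with all 9 counted, and to at most 5.75 CPM in every DC library. The sum was led by Ngp, Ltf, S100a8 and S100a9, of which the S100 genes are also expressed by monocytes, while Retnlg and Cxcr2, genes of mature neutrophils, had means of 0.173 and 0.455 CPM. The sort took lineage-negative cells, and the study lists antibodies to Ly6G and Gr1 among its reagents. The part of such cells in the monocyte levels of Ccl6 and Ccl9 was not tested. In the LN DC libraries, where Ccl6 and Ccl9 were above the splenic DCs, 7 of the 9 markers were at 0 in LN CD103+ DCs and 6 of 9 in LN CD11b+ DCs.

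The windows before Ccl6 (chr11:83593088-83593337) and Ccl9 (chr11:83578637-83578886) are shown for this pair of neighbouring monocyte genes. Capitals mark in Ccl6 the PU.1 core AGGAAGT, here on the opposite strand, 48 to 42 bases before the start, which stands in 9.57% of windows. In Ccl9 they mark the NF-kB consensus 35 to 26 bases before the start, which stands in 10.9% of windows.
Ccl6: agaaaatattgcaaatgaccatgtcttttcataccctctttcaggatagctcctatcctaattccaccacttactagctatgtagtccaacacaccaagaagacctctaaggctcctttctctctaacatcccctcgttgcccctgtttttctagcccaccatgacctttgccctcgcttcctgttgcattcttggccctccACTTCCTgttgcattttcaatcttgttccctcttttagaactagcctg
Ccl9: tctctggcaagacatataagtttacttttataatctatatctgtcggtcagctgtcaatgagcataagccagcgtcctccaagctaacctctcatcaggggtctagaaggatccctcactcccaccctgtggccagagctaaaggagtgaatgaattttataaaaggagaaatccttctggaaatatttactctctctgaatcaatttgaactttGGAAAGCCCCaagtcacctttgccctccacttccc

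Of the CXC ligands, Cxcl16 and Cxcl1 were highest in the LN subtypes and Cxcl9 in splenic CD8+ DCs. Cxcl16 (ENSMUSG00000018920; chr11:70453983-70459984, minus strand) encodes a membrane-bound ligand that also acts as a scavenger receptor. It measured 2673, 2862 and 2456 CPM in LN CD103+ DCs, while LN CD11b+ DCs had 2376, 3485 and 2491 CPM. Splenic CD8+ DCs had 147, 229 and 225 CPM, splenic CD4+ DCs 90.5, 191 and 163 CPM, and monocytes 44.8, 32.4 and 37.9 CPM. The LN excess was 13.3-fold in DC1 (log2 fold change 3.735 ± 0.29, adjusted p = 6.15e-09) and 18.8-fold in DC2 (4.23 ± 0.29, adjusted p = 5.46e-09). The lineages overlapped and did not pass the test in the LN (-0.06 ± 0.26, adjusted p = 0.916) or in the spleen (0.43 ± 0.26, adjusted p = 0.226). Monocytes fell below splenic CD4+ DCs by 3.86-fold (-1.95 ± 0.27, adjusted p = 1e-05).

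Cxcl16 shares 18.3% of its exon bases with Zmynd15. Reads were counted without regard to strand and for every gene they overlap, so reads of the 2 genes cannot be told apart over these bases. Zmynd15 rose with Cxcl16, from a range of 21.01 to 50.7 CPM in the splenic DC libraries to 1559 to 1866 CPM in LN CD103+ DCs, while LN CD11b+ DCs had 770 to 969 CPM. Summed over libraries, Cxcl16 had 58431 counts against 38320 for Zmynd15 in LN CD103+ DCs and 57128 against 18953 in LN CD11b+ DCs.

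Cxcl1 (ENSMUSG00000029380; chr5:90891241-90893115, plus strand), a neutrophil attractant, was counted at 10.05, 8.89 and 28.3 CPM in LN CD103+ DCs, while LN CD11b+ DCs had 24.2, 18.9 and 51.7 CPM. The splenic CD8+ DC libraries held 0, 1 and 1 counts, the splenic CD4+ DC libraries none and the monocyte libraries 2, 0 and 0. In both LN subtypes replicate 3 was the highest library, and the subtypes overlapped (log2 fold change of CD103+ minus CD11b+ DCs -1.004 ± 0.50, adjusted p = 0.22). Within DC2 the LN excess was at least 207-fold (adjusted p = 1.19e-06), and the limit was 125-fold when replicate 1 of splenic CD4+ DCs was left out. Within DC1 it was 193-fold over the 2 splenic counts (95% counting interval 53.5 to 1595, adjusted p = 2.94e-06), or 116-fold without LN CD103+ DC replicate 3.

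Stromal and endothelial cells are a known source of Cxcl1. Of their 7 markers, the collagen genes were higher in the LN: Col1a1, Col1a2 and Col3a1 had means of 0.894, 1.09 and 1.42 CPM in LN CD103+ DCs and of 0.911, 2.10 and 1.90 CPM in LN CD11b+ DCs, against at most 0.564 CPM in splenic CD8+ DCs and no count in splenic CD4+ DCs. The summed level of the list was led by the endothelial markers Pecam1 and Kdr, and was 9.78 to 19.4 CPM in LN CD103+ DCs, 47.1 to 64.5 CPM in LN CD11b+ DCs, 66.4 to 115 CPM in splenic CD8+ DCs, and 92.7 to 100.05 CPM in splenic CD4+ DCs. Mean Pecam1 was lower in the LN, at 8.44 (CD103+) and 9.77 CPM (CD11b+) against 73.1 (CD8+) and 83.3 CPM (CD4+) among splenic DCs. Mean Kdr was highest in LN CD11b+ DCs, the subtype with the most Cxcl1, at 38.8 CPM. Among splenic DCs Kdr was 17.5 (CD8+) and 11.6 CPM (CD4+), and LN CD103+ DCs had 3.35 CPM. The part of stromal and endothelial cells in the Cxcl1 level was not tested.

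The window before Cxcl1 (chr5:90890995-90891240) is shown because it holds the NF-kB consensus, in 2 overlapping matches 71 to 62 and 70 to 61 bases before the start, marked by capitals.
Cxcl1: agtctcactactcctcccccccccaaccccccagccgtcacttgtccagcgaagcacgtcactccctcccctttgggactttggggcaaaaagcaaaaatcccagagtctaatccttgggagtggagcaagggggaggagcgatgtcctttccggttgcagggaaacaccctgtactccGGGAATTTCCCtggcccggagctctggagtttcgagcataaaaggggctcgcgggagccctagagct

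Cxcl9 (ENSMUSG00000029417; chr5:92321331-92328079, minus strand), an interferon-γ induced ligand, was the ligand of splenic CD8+ DCs, at 76.3, 53.3 and 126 CPM. All other libraries lay between 1.53 and 11.3 CPM: LN CD11b+ DCs had 7.10, 6.60 and 11.3 CPM, LN CD103+ DCs 11.3, 6.20 and 6.63 CPM, monocytes 4.92, 6.22 and 2.76 CPM, and splenic CD4+ DCs 6.19, 1.53 and 5.99 CPM. No difference among these 4 subtypes passed the test (adjusted p from 0.141 to 0.996). Splenic CD8+ DCs were 18.6-fold above splenic CD4+ DCs (log2 fold change 4.20 ± 0.45, adjusted p = 1.61e-06) and 10.6-fold above LN CD103+ DCs (LN minus spleen -3.40 ± 0.43, adjusted p = 3.19e-06). In DC2 the LN minus spleen change was 0.82 ± 0.45 (adjusted p = 0.177). The difference between these organ changes was -4.22 ± 0.61 (adjusted p = 0.000168).

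Searched with the same motifs, the windows before Ccl3 and Cxcl9 held no match, and the ISRE core, GAAA and again GAAA with any 2 bases between, which stands in 3.49% of windows, was in none of the 7 windows found.

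Between organs, most of the ligands moved, mostly upward in the LN. Within DC1, LN CD103+ DCs differed from splenic CD8+ DCs in 10 of 10 members, 7 higher and 3 lower, where 45.6% of all genes tested passed (23.8% higher, 21.8% lower). Within DC2, 9 of 10 members passed between LN CD11b+ and splenic CD4+ DCs, 7 higher in the LN and 2 lower, where 33.1% of genes passed (19.3% higher, 13.8% lower). The member that did not pass was Cxcl9. Ccl5, Ccl6, Ccl9, Ccl17, Ccl22, Cxcl1 and Cxcl16 rose in the LN in both lineages, and Ccl3 and Ccl4 fell in both, in DC2 with the losses of call given above. The median log2 fold change of the members was 4.06 in DC1 and 2.86 in DC2, against 0.00 and 0.05 over all genes tested. Ccl17 and Cxcl1 passed the filter through LN libraries only. These counts and medians, and later counts that set LN against splenic subtypes, were therefore favoured by the filter.

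The organ change itself differed between the lineages for 3 of 10 members, Ccl5, Ccl9 and Cxcl9, where 11.2% of genes passed (5.17% with the larger value in DC1, 6.03% with the smaller). With the replicate number as a block, 5 members passed, with Ccl6 (difference of DC1 and DC2 changes 1.16, adjusted p = 0.0438) and Ccl17 (adjusted p = 0.0397) added. For Ccl17 and Cxcl1 no size of this difference can be given, because splenic CD4+ DCs had no count.

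**Figure D2:**
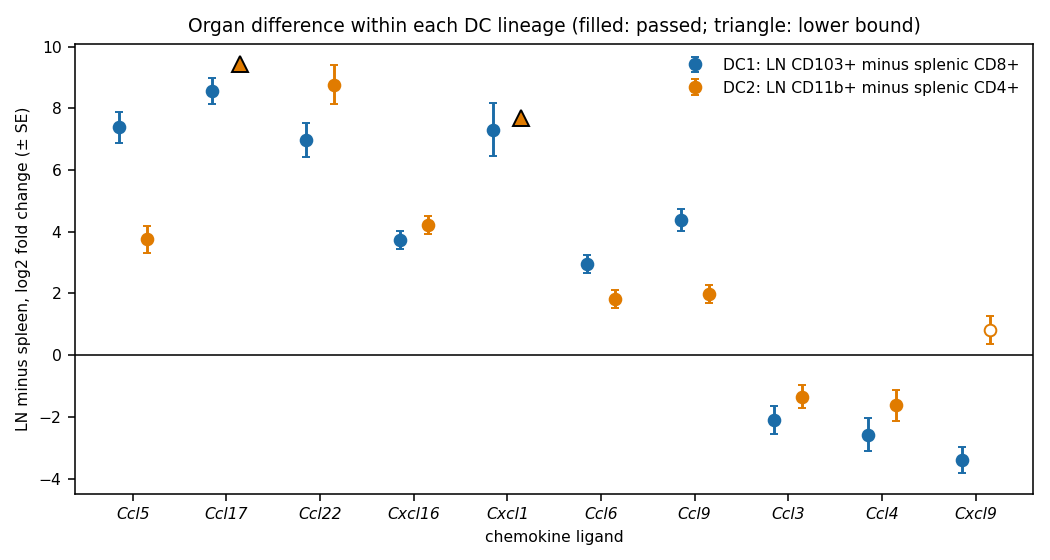
LN minus spleen log2 fold change of each ligand (± SE) within DC1 (blue) and DC2 (orange), filled where the test was passed, with triangles for lower bounds against a splenic group with no count. Of the ligands 7 lie above 0 in both lineages and Ccl3 and Ccl4 lie below, while Cxcl9 is at -3.40 in DC1 and 0.82 in DC2.

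Between lineages within an organ fewer members passed. In the spleen, CD8+ DCs differed from CD4+ DCs in 6 of 10 members, with Ccl17, Ccl22 and Cxcl9 higher and Ccl3, Ccl5 and Ccl9 lower, where 27.4% of genes passed (13.1% higher, 14.4% lower). In the LN, CD103+ DCs differed from CD11b+ DCs in 5 of 10 members, with Ccl5 and Ccl6 higher and Ccl3, Ccl4 and Ccl9 lower, where 12.9% of genes passed (5.22% higher, 7.73% lower). This LN count was 2 without LN CD103+ DC replicate 3 and 3 without LN CD11b+ DC replicate 3. Ccl3 and Ccl9 were lower in the DC1 subtype of both organs. Between the cells of the other lineage and organ, LN CD103+ DCs differed from splenic CD4+ DCs in 9 of 10 members, 7 higher and 2 lower (47.0% of genes, 24.8% higher and 22.2% lower), and LN CD11b+ DCs from splenic CD8+ DCs in 9 of 10, 8 higher and 1 lower (39.9% of genes, 22.5% higher and 17.3% lower).

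Monocytes differed from splenic CD8+ DCs in 8 of 10 members, 3 higher and 5 lower, where 42.1% of genes passed (20.4% higher, 21.7% lower), and from splenic CD4+ DCs in 6 of 10, 2 higher and 4 lower, where 48.0% passed (23.8% higher, 24.2% lower). They differed from LN CD103+ DCs in 9 of 10 members, 4 higher and 5 lower (53.2% of genes, 24.6% higher and 28.6% lower), and from LN CD11b+ DCs in 7 of 10, 2 higher and 5 lower (47.8% of genes, 21.3% higher and 26.5% lower). Ccl6 and Ccl9 were higher in monocytes in each of these comparisons, and Ccl5 and Cxcl16 lower in each. The count against splenic CD4+ DCs includes the weak call of Ccl3 given above, and 2 other counts include weak calls of Ccl4. Against splenic CD8+ DCs it fell by 1.28 on the log2 scale (adjusted p = 0.044), a call lost without any monocyte library, splenic CD8+ DC replicate 1 or 3, splenic CD4+ DC replicate 1 or LN CD103+ DC replicate 3 (adjusted p from 0.0521 to 0.141), with both limma fits (0.196 and 0.259) and with the first run of each monocyte library (0.0716). Against LN CD103+ DCs it rose by 1.30 (adjusted p = 0.0478), a call lost without any monocyte library, LN CD103+ DC replicate 2 or 3, LN CD11b+ DC replicate 3, splenic CD8+ DC replicate 1 or 3 or splenic CD4+ DC replicate 1 or 2 (adjusted p from 0.0502 to 0.124), with RLE factors (0.053) and in a fit of these 2 subtypes alone (0.0775).

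Per length, the ligand mRNA of each subtype was dominated by different members. The 10 members summed to 21218 ± 2430 TPM (SD, n = 3) in LN CD103+ DCs, 9106 ± 929 TPM in LN CD11b+ DCs, 1625 ± 118 TPM in monocytes, 1043 ± 452 TPM in splenic CD4+ DCs and 522 ± 136 TPM in splenic CD8+ DCs. They made up 90.2% to 98.5% of the TPM of all 38 chemokine ligands listed. Ccl5 alone held 79.6% of ligand TPM in LN CD103+ DCs, where its 17135 ± 2266 TPM ranked 6 among all genes, and 55.4% in LN CD11b+ DCs, where it ranked 15. Cxcl16 followed with 9.24% and 22.8%, and Ccl22 with 5.87% and 7.11%. Of the CCR4 ligands, Ccl22 had the higher mean, at 1264 ± 214 against 572 ± 171 TPM in LN CD103+ DCs and 682 ± 173 against 495 ± 127 TPM in LN CD11b+ DCs.

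In monocytes Ccl6 held 57.8% of ligand TPM and Ccl9 21.8%. In splenic CD4+ DCs the leading members were Ccl5 at 423 ± 287 TPM, Ccl4 at 260 ± 61.2 TPM and Ccl3 at 184 ± 87.1 TPM, a spread over libraries that covers their order. In splenic CD8+ DCs they were Cxcl16 at 159 ± 32.7 TPM, Ccl4 at 126 ± 30.6 TPM, Ccl5 at 108 ± 68.4 TPM and Cxcl9 at 70.7 ± 31.1 TPM. LN DCs thus differed from splenic DCs in the summed level of ligand mRNA and also in its make-up.

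**Figure D3:**
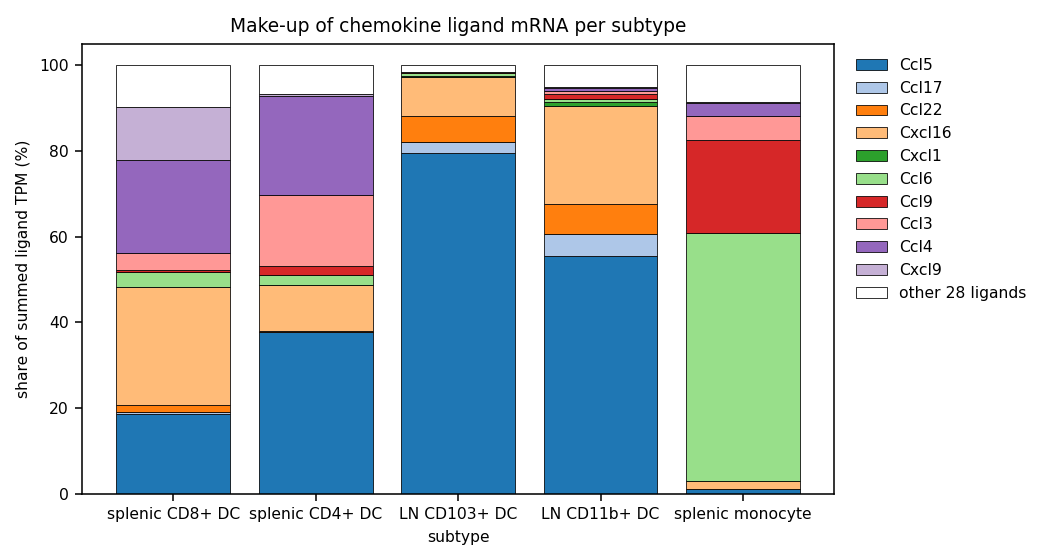
Share of each of the 10 ligands in the summed TPM of 38 chemokine ligands (per cent, mean of 3 libraries per subtype, white for the other 28 ligands). Ccl5 takes 79.6% in LN CD103+ DCs and 55.4% in LN CD11b+ DCs, Ccl6 and Ccl9 take 57.8% and 21.8% in monocytes, and splenic DCs are split over more ligands.

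The members grouped by their correlation of log2 CPM over the 15 libraries, a description that mostly follows the 5 subtype means. Ccl17 and Ccl22 had r = 0.978 and Ccl5 and Ccl22 r = 0.920, while Ccl3 and Ccl4 had r = 0.766. Taken as deviations from the subtype means, which share depth and composition of each library, Ccl3 and Ccl4 had r = 0.831, Ccl17 and Ccl22 r = 0.485, and Ccl5 and Ccl9 r = -0.767. Among splenic CD8+ DCs, replicate 3 was the highest library for Ccl5, Ccl17, Ccl22 and Cxcl9 and the lowest for Ccl9, and its sum of the 5 mature migratory DC markers was 461 CPM against 375 and 413 CPM, with Ccr7 and Cd40 highest and Relb lowest of the 3 libraries. Among splenic CD4+ DCs, replicate 3 was the highest for Ccl3, Ccl4, Ccl5 and Ccl22, while its sum of those markers was 1397 CPM, between the 995 and 1930 CPM of the other libraries.

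The genes most like each member were taken by Pearson's r of log2 CPM over the 15 libraries, among 10146 genes with a symbol and a mean of at least 10 CPM in some subtype. Ccl5 was closest to Arhgap28, Il4i1 and Cdkn2b (each r = 0.986), and Ccl17 to Serpinb9b, Cryaa and Atcay (r = 0.994, 0.993 and 0.992). Ccl22 was closest to Sepsecs, Sh3bp4 and Gal3st2b (0.987, 0.985 and 0.984), Cxcl16 to Dscaml1, Eno2 and Adcy6 (0.993, 0.991 and 0.990), and Cxcl1 to Sod3, Serpinb9b and Fbln5 (0.979, 0.978 and 0.977). Ccl6 was closest to Thbs1, Mir22hg and Rras (0.978, 0.971 and 0.969), and Ccl9 to Fcho2, Osm and Dram1 (0.982, 0.977 and 0.976). Ccl3 was closest to Clec4a2, Siglece and the DC2 marker Sirpa (0.956, 0.941 and 0.936), Ccl4 to Arhgap19, Ggt5 and Btbd19 (0.952, 0.923 and 0.918), and Cxcl9 to Cct6a, P2ry14 and Gm26527 (0.954, 0.948 and 0.942).

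Of 28 other chemokine ligands, 12 passed the filter and 10 of these passed the test over the 5 subtypes (73.5% of all genes). All 10 were higher in LN CD11b+ than in splenic CD4+ DCs (19.3% of all genes), and 6 of them were higher in LN CD103+ than in splenic CD8+ DCs (23.8%). Ccl7, Ccl8, Ccl19, Ccl21a, Cxcl12 and Cx3cl1 passed the filter through LN libraries, where they were high, and Ccl24 through those of LN CD11b+ DCs. The counts of other ligands that passed the tests were thus favoured by the filter. Cx3cl1 is the membrane-bound fractalkine, whose gene lies between Ccl22 and Ccl17. The levels of Cx3cl1 were 77.9, 79.8 and 80.2 CPM in LN CD103+ DCs, while LN CD11b+ DCs had 31.5, 33.9 and 41.5 CPM, against 0.120, 1.08 and 1.37 CPM in splenic CD8+ DCs and 2 counts over the splenic CD4+ DC libraries. These 3 genes, the only ones annotated in this stretch of chromosome 8, were all higher in the LN in both lineages.

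The neighbours of the other members did not all move alike. Cxcl10, a CXCR3 ligand near Cxcl9 on chromosome 5, was highest in LN CD11b+ DCs at 73.0, 64.2 and 77.8 CPM and measured 22.2, 32.5 and 22.7 CPM in splenic CD8+ DCs, where Cxcl9 was highest. Its organ change in DC1 did not pass the test (log2 fold change -0.45 ± 0.26, adjusted p = 0.18) and in DC2 it rose (0.92 ± 0.26, adjusted p = 0.00955). Cxcl2, a CXCR2 ligand near Cxcl1, measured 29.0, 19.1 and 33.6 CPM in LN CD11b+ DCs and 5.30, 5.501 and 15.6 CPM in LN CD103+ DCs. In monocytes Cxcl2 measured 16.3, 23.2 and 17.4 CPM, where Cxcl1 held 2 counts in all. Of the remaining ligands of highest level, Ccl21a measured 54.5 ± 12.3 CPM in LN CD103+ DCs, with 56.2 ± 27.1 CPM in LN CD11b+ DCs, Ccl19 11.53 ± 3.44 and 7.19 ± 1.86 CPM, and Ccl8 7.46 ± 5.59 and 10.6 ± 7.18 CPM. Ccl21a has near-identical copies in the mouse genome, so its count is uncertain.

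**Figure D4:**
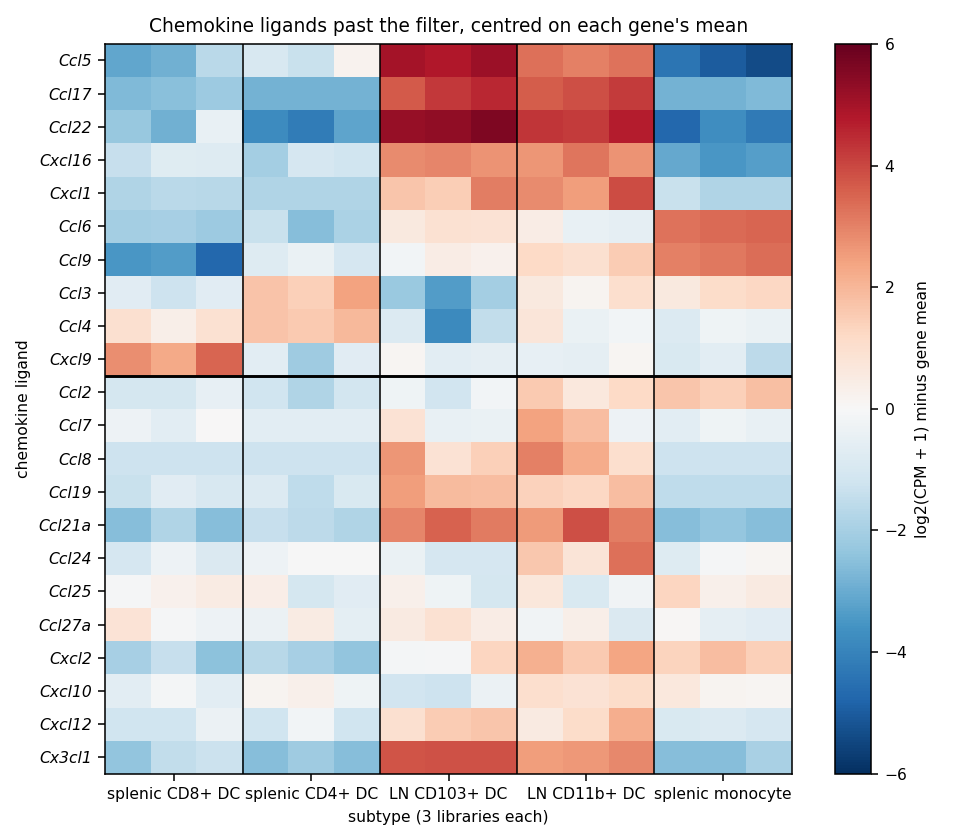
The 10 members (above the line) and the 12 other chemokine ligands past the filter (below it) in each of the 15 libraries, coloured by log2(CPM + 1) minus the gene's mean over libraries. The LN libraries are above the mean for Ccl5, Ccl17, Ccl22, Cxcl16, Cxcl1 and, below the line, for Cx3cl1, Ccl21a and Ccl19.

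Receptors of the members were counted in the same cells. Ccr4, the receptor of Ccl17 and Ccl22, held 9 counts over LN CD11b+ DCs and none elsewhere, and Ackr2 was not counted. Ccr1, the receptor of Ccl6 and Ccl9, was highest in monocytes at 14.2, 33.9 and 29.7 CPM. It fell in the LN within DC1 (log2 fold change -4.40 ± 0.66, adjusted p = 2.28e-05) and rose within DC2 (5.11 ± 0.68, adjusted p = 1.13e-05), a difference of -9.50 ± 0.94 (adjusted p = 3.76e-06).

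Cxcr3, the receptor of Cxcl9, was highest in the subtype with the most Cxcl9, at 38.6, 41.6 and 60.0 CPM in splenic CD8+ DCs against 0.538 to 5.97 CPM in the other libraries. It stood 3.56 ± 0.51 above splenic CD4+ DCs on the log2 scale (adjusted p = 4.13e-05). Cxcr6, the receptor of Cxcl16, measured 10.97, 36.4 and 75.8 CPM in LN CD11b+ DCs and 2.09, 6.32 and 13.4 CPM in LN CD103+ DCs, and rose in the LN in both lineages (2.70 ± 0.75 in DC1, adjusted p = 0.0066, and 3.52 ± 0.69 in DC2, adjusted p = 0.000583). Cxcr6 is a gene of T cells too, and the T cell marker sums of these libraries are given with Ccl5. Its libraries within a LN subtype differed several-fold. Ccrl2, an atypical receptor, had the highest level of the list, with 73.1, 72.6 and 143 CPM in splenic CD4+ DCs, and was lowest in splenic CD8+ DCs at 17.8, 9.85 and 20.4 CPM. Ccr3 was highest in splenic CD4+ DCs at 19.8, 31.0 and 14.98 CPM, and was counted 5 times over LN CD103+ DCs.

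**Figure D5:**
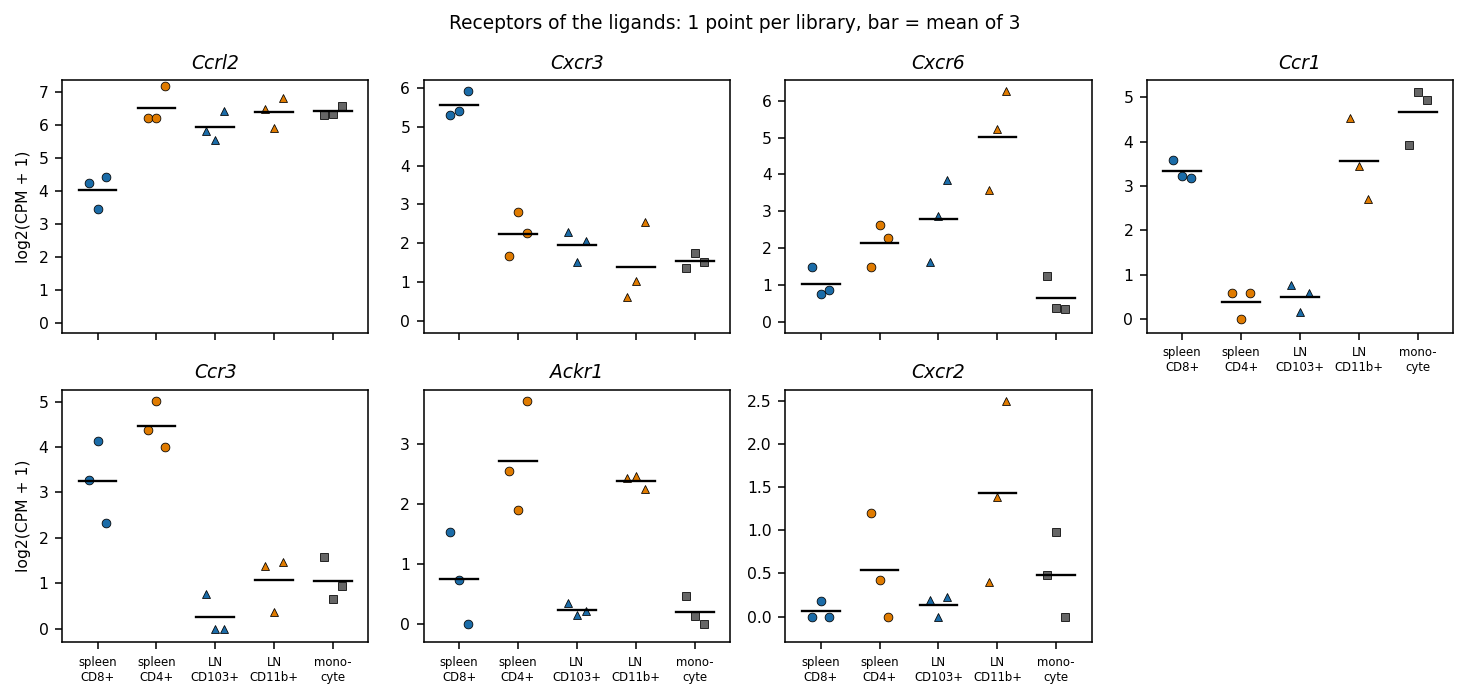
Levels of 7 receptors past the filter as log2(CPM + 1), with 1 point per library (circles spleen DCs, triangles LN DCs, squares monocytes, blue DC1, orange DC2) and a bar at the mean of the 3 log2 values. Cxcr3 is highest in splenic CD8+ DCs, Ccr1 in monocytes and Cxcr6 in LN CD11b+ DCs, while Ccr1 sits low in splenic CD4+ and LN CD103+ DCs.

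Of the proteases that cut these ligands, Adam10, which sheds CXCL16 from the membrane, rose in the LN within DC1 (log2 fold change 1.45 ± 0.21, adjusted p = 1.74e-05) and DC2 (0.81 ± 0.21, adjusted p = 0.00512). It measured 201 ± 37.3 CPM in LN CD103+ DCs, with 270 ± 46.5 CPM in LN CD11b+ DCs, against 73.6 ± 2.17 and 154 ± 39.0 CPM in the splenic DCs. Adam17, a related sheddase, did not pass between organs in DC1 (0.01 ± 0.17, adjusted p = 0.967) or DC2 (0.45 ± 0.17, adjusted p = 0.0519). Dpp4, which trims the N terminus of several chemokines, measured 501 ± 58.9 to 683 ± 116 CPM in the DC subtypes and 112 ± 3.84 CPM in monocytes, and did not pass between organs in either lineage (adjusted p = 0.416 and 0.419). Monocytes were below splenic CD8+ DCs in Dpp4 (log2 fold change -2.155 ± 0.21, adjusted p = 1.27e-07).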

How the data were processed

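RNA of 15 mouse libraries (5 subtypes, 3 replicates) was measured on an Ion Torrent instrument from poly-A cDNA. The authors discarded reads under 30 nt, mapped the rest to mm10 with STAR (2.4.0j in the submitters' notes), and deposited whole-number counts per Ensembl 75 gene made with featureCounts (Subread 1.5.2) without strand, where a read counted for each gene it overlapped by at least 0.5 of its length. The authors also deposited counts per run and TPM. Summed runs equalled the deposited counts in all 15 libraries, and TPM was recomputed from the counts with differences of at most 9.6e-10. Human libraries and other mouse subtypes are not analysed here. Groups came from the sample titles. Replicates differed by at least 4.96 times counting noise (genes with at least 20 counts in a pair), so none was a copy.

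Genes above 1 CPM in at least 3 libraries (14456) were fitted with edgeR (4.0.16, R 4.3.3) in a quasi-likelihood model of 5 subtype means with TMM factors (0.883 to 1.1), common dispersion 0.0681, 10 residual degrees of freedom and Benjamini-Hochberg adjustment at 0.05. The steps were tested on simulated data. Depth per library was 4531243 to 10233914 counts on genes. Ratios are of mean CPM. A group at 0 was set to 3 counts over the group, and groups of 1 to 3 counts carry an exact Poisson interval (95%). The text names all 10 members, the highest 6 other ligands and, of the highest 6 receptors, 5 (1 is not reported here), 3 proteases and the 3 genes most like each member. The members and all lists were chosen with earlier results of these data known. Alternatives were RLE factors, DESeq2 (1.42.0), no filter, filterByExpr, limma (3.58.1) on log2(TPM + 1) and log2(TPM + 0.1), a fold requirement, only the subtypes compared, the first run of monocyte libraries, each library left out and the replicate number as a block.

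Same-numbered libraries deviated together, with all 3 correlations over 0.1, in 4 of 10 pairs of subtypes: splenic CD8+ with CD4+ DCs (0.162 to 0.375), splenic CD4+ with LN CD103+ DCs (0.117 to 0.146) and with LN CD11b+ DCs (0.197 to 0.266), and the LN subtypes (0.179 to 0.259). The pairing comes from these values, since the labels do not say what a number marks. RefSeq promoter windows (GRCm38.p6) were found for 7 of the 10 members. Ccl4, Ccl5 and Cxcl16 had none.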

Additional observations from a re-analysis of the deposited data

Results flagged for a closer look

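The LN minus spleen change differed between DC1 and DC2 by an interaction test for 3 members. For Ccl5 the change in DC1 exceeded that in DC2 by 3.64 on the log2 scale (7.39 against 3.75, adjusted p = 0.000279, edgeR), with all 3 LN CD103+ DC libraries above and all 3 splenic CD8+ DC libraries below the DC2 libraries of their organ. For Ccl9 it exceeded it by 2.4 (4.38 against 1.98, adjusted p = 0.00159). For Cxcl9 the difference was -4.22 (-3.40 against 0.82, adjusted p = 0.000168), and the change in DC2 did not pass the test. No cause of these differences was tested.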

How the results depend on the processing

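Over 106 changes of single members between subtypes, 944 of 979 values under other settings kept their direction and their side of the threshold, 18 lost the call, 14 gained it and 3 reversed, and with 1 library left out 1536 of 1590 kept both, 38 lost the call, 7 gained it and 9 reversed. The value that reversed under other settings was Cxcl9 between monocytes and splenic CD4+ DCs (0.01, not called), which was -0.026 with RLE factors, -0.023 with DESeq2 and -0.063 with only these subtypes. Reversals with 1 library left out were all of uncalled values: this Cxcl9 difference ranged from -0.38 to 0.30, Cxcl9 between the LN subtypes from -0.35 to 0.23, Cxcl16 between them from -0.17 to 0.13 and Ccl6 between the splenic DC subtypes from -0.50 to 0.13. Members called between the LN subtypes (5) were 3 with limma on log2(TPM + 0.1) and 2 to 6 with 1 library left out, and members whose organ change differed between lineages (3) were 5 with no filter and 5 with the replicate block. The block changed no other count by over 1.5 times. With it, Ccl17 of monocytes against splenic CD8+ DCs also passed (adjusted p = 0.0354). The causes were not tested. Depth limits Ccl17 and Cxcl1 in the spleen, where 8 counts or fewer were found per subtype.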
